A study of Mus musculus with 11 samples.

Results

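Kupffer cells (KCs) from livers in which a conditional Zeb2 allele was targeted were split by their own RNA. The split was between cells with detected RNA of the surface markers SiglecF or MS4A1 and cells with neither detected. Lack of detection does not show lack of expression. The members were chosen by measured values. Within the Zeb2KO liver library, cells with at least 1 UMI (a molecule counted once through its barcode) of Clec4f, the KC lectin gene, were taken. Group A held the cells with at least 1 UMI of Siglecf or Ms4a1 and none of Cd79a, a B cell receptor subunit gene used to leave out B cells. Group B held the cells with no UMI of Siglecf or Ms4a1. Group A had 2130 cells and group B 2057, or 4187 of the 4446 cells of this library that passed the cell filter and of the 51712 barcodes of the whole series. A further 108 Clec4f-expressing cells carried a marker UMI together with Cd79a and were left out. Of the 4295 Clec4f-expressing cells, group A made up 49.6% (95% exact binomial interval 48.1 to 51.1%) and group B 47.9%. The comparison asks how KCs that lost Zeb2 differ from KCs of the same liver that are likely to have kept a copy.

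ZEB2 is a zinc-finger and homeobox protein that mostly represses its targets, binds paired E2-box motifs in DNA, works with CtBP corepressors and SMAD proteins, and is best known for driving the epithelial-to-mesenchymal transition. KCs are the resident macrophages of the liver sinusoids, where they clear bacteria, dying cells and old red cells from the blood. They carry the lectin CLEC4F, the phosphatidylserine receptor TIM4 and the complement receptor VSIG4, and depend on the transcription factor LXR-alpha, encoded by Nr1h3. SiglecF, a sialic acid-binding receptor, is usually a marker of eosinophils and alveolar macrophages. MS4A1 is the B cell antigen CD20.

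The series compared macrophages sorted from mice with and without Zeb2 in the liver, lung, brain, colon and spleen, by droplet single-cell RNA-seq that reads the 3′ ends of transcripts, with 1 library for each tissue and genotype. The Zeb2KO mice carried Zeb2fl/fl together with a cre transgene. By the study's methods this was Itgax-cre for the lung and Fcgr1-cre for the brain, colon and spleen. For the liver library the labels name Fcgr1-cre and the study's methods name Clec4f-cre, so the cells are called Zeb2KO here. The WT KC library came from Zeb2fl/fl mice and a further liver control library, called Nr1h3fl/fl WT KC, from mice with Nr1h3fl/fl and no cre. All 3 thus carried loxP sites, at Zeb2 or at Nr1h3. The mice were on a C57Bl/6 background, of both sexes and young adult by the study's methods, and liver cells were sorted as Clec4F+CD64+F4/80+. Clec4f-cre places the recombinase behind the coding sequence of Clec4f itself, so Clec4f is at once a sort marker, the locus that would drive the cre and a gene of the rule. The study also records cre activity in a small population of B cells. How many animals each library held is not given in the sources used here. Groups A and B are cells of 1 library, and each control is 1 library. Intervals below therefore cover counting error only, and no statistical test between conditions could be made.

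The 11 libraries held 3097 to 7703 barcodes and 11133411 to 47400786 UMIs, and the Zeb2KO liver library shared 15 to 51 barcodes with any other library. Group A summed to 14763211 UMIs and group B to 13102927. Cells of group A were deeper, with a median of 6379.5 UMIs and 2144 genes against 5392 UMIs and 1982 genes in group B, and the median mitochondrial share was 2.81% and 3.13%. A cell with more UMIs has a larger chance to show a marker UMI, so this gap in depth is in part set by the rule. General macrophage genes were expressed in both groups. Of 12 such genes 0 differed 2-fold, where 3.61% of all genes did, and their median log2 ratio was -0.04. Csf1r, the receptor for the macrophage growth factor, stood at 1250 UMIs in every 1000000 (counts per 1000000, CPM) in group A and 1229 in group B, and Adgre1, which encodes F4/80, at 725 and 686 CPM.

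Siglecf and Ms4a1 served as the basis of the split and their levels are a description. Siglecf was found in 1834 cells of group A (86.1%), Ms4a1 in 1256 (59.0%) and both in 960 (45.1%). Siglecf summed to 288 CPM and Ms4a1 to 184 CPM in group A. In the WT KC library Siglecf was at 1.55 CPM and Ms4a1 at 11.4 CPM, and in the Nr1h3fl/fl WT KC library at 1.20 and 4.01 CPM. The same rule picked 53 of 4293 Clec4f-expressing WT KCs (1.24%, interval 0.926 to 1.61%) and 29 of 3673 Nr1h3fl/fl WT KCs (0.790%, interval 0.529 to 1.13%). Only 3 and 1 of those cells, respectively, had 2 or more marker UMIs, against 1521 cells (71.4%) of group A. Within the Zeb2KO liver library, Siglecf UMIs were also found in 23 of 128 cells of the B cell cluster (18.0%, median depth 3760.5 UMIs), in 120 of 343 cells of an endothelial-like cluster led by Cldn5 (35.0%, 6931 UMIs) and in 6 of 72 cells of another, led by Adgrf5 (8.33%, 5698 UMIs). B cells should lack Siglecf, and free RNA and the cre activity recorded in B cells cannot be told apart as sources of its UMIs there. The Cldn5 cluster also held Clec4f-expressing cells of both groups, and cell doublets were not tested as its source.

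Of 5507 genes that reached 20 CPM in either group, 199 differed by 2-fold or more on the scale of log2(CPM + 1), which was 3.61%. Among them 118 were higher in group A (2.14%) and 81 were lower (1.47%). Here and below a gene is called higher or lower only past this 2-fold limit. A gene that reached 20 CPM in only 1 group had to stand higher there, as did 257 genes through group A alone and 407 through group B alone. Of the 4843 genes that reached it in both groups, 59 were higher in group A (1.22%) and 45 lower (0.929%). The median log2 ratio over all 5507 genes was -0.08. The 118 higher genes were 59.3% of the 199. With TMM scaling, which raised the median of all genes by 0.14 to 0.06, 149 were higher and 60 lower, so that 71.3% of the genes past 2-fold were higher. The share was 47.3% when the rule was applied to thinned cells, 44.5% with no floor and 37.0% with group B limited to clusters that WT KCs share, so which direction held more genes depended on these choices. Group B so limited kept its 248 cells in clusters of other cell types. The counting interval of the ratio lay above 0 for 1351 genes and below 0 for 2242, so that many differences under 2-fold exceeded counting error.

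Among genes of at least 50 CPM, those with the largest excess in group A were a decoy cytokine receptor, an antimicrobial protein, a stress gene and adhesion or membrane genes, and none of the 15 exceeded 20.3 CPM in KCs of either control library. Il1r2, the decoy receptor that binds IL-1 without signalling, was at 62.6 CPM (Poisson interval 58.6 to 66.8) in group A, 7.94 CPM (6.49 to 9.62) in group B, 0.0775 CPM in WT KCs and 0.104 CPM in Nr1h3fl/fl WT KCs. Its UMIs were seen in 29.5% of group A cells and 4.42% of group B cells, and the log2 ratio was 2.83. Pglyrp1, a secreted peptidoglycan-binding protein, was at 169 CPM in group A, 23.6 in group B, 3.29 in WT KCs and 0.885 in Nr1h3fl/fl WT KCs. Both genes thus stood in the order group A, group B, control livers, with intervals of groups A and B that did not overlap. In group B, 61.5% of the Il1r2 UMIs and 66.3% of the Pglyrp1 UMIs lay in 291 cells of clusters without WT cells, described below. The level of group B is thus an average over unlike cells.

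Ddit4, an mTORC1 inhibitor induced by stress, was at 239 CPM in group A against 39.0 in group B, 3.26 in WT KCs and 1.98 in Nr1h3fl/fl WT KCs. Cd34, a sialomucin better known from stem cells and endothelium, was at 118 CPM against 19.5, 0.969 and 0.364. S100a11, a calcium-binding protein, was at 401 CPM against 78.2, 20.3 and 10.4. The same descending order held for each of these 3 genes. Of their group B UMIs 59.3% (Ddit4), 47.8% (Cd34) and 36.7% (S100a11) lay in the same 291 cells. Itgax, which encodes the integrin CD11c, was at 51.6 CPM in group A, 10.53 in group B, 3.02 in WT KCs and 1.61 in Nr1h3fl/fl WT KCs. Gsn, the actin-severing protein gelsolin, was at 139 CPM in group A and 33.6 in group B, and at 11.9 and 12.8 CPM in the control libraries. H2-Oa, a subunit of the MHC class II chaperone H2-O, was at 65.1 CPM in group A and 13.97 in group B.

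The remaining members of the 15 highest were the membrane protein gene Plp2 (log2 ratio 2.53), Gm3336 (2.41), the membrane dipeptidase gene Dpep2 (2.12), the sorting receptor gene Sorl1 (2.07), Rusc1 (1.96), the protease inhibitor gene Serpinb6b (1.96) and the G protein regulator gene Rgs3 (1.94). Without the cells in clusters of other cell types the ratios of the 15 lay between 1.94 for Rusc1 and Serpinb6b and 2.86 for Il1r2, all past 2-fold because the 15 were chosen so. The Dpep2 UMIs of group B came to 34.2% from 26 cells of the cluster led by Alox15 that is described below.

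**Figure D1:**
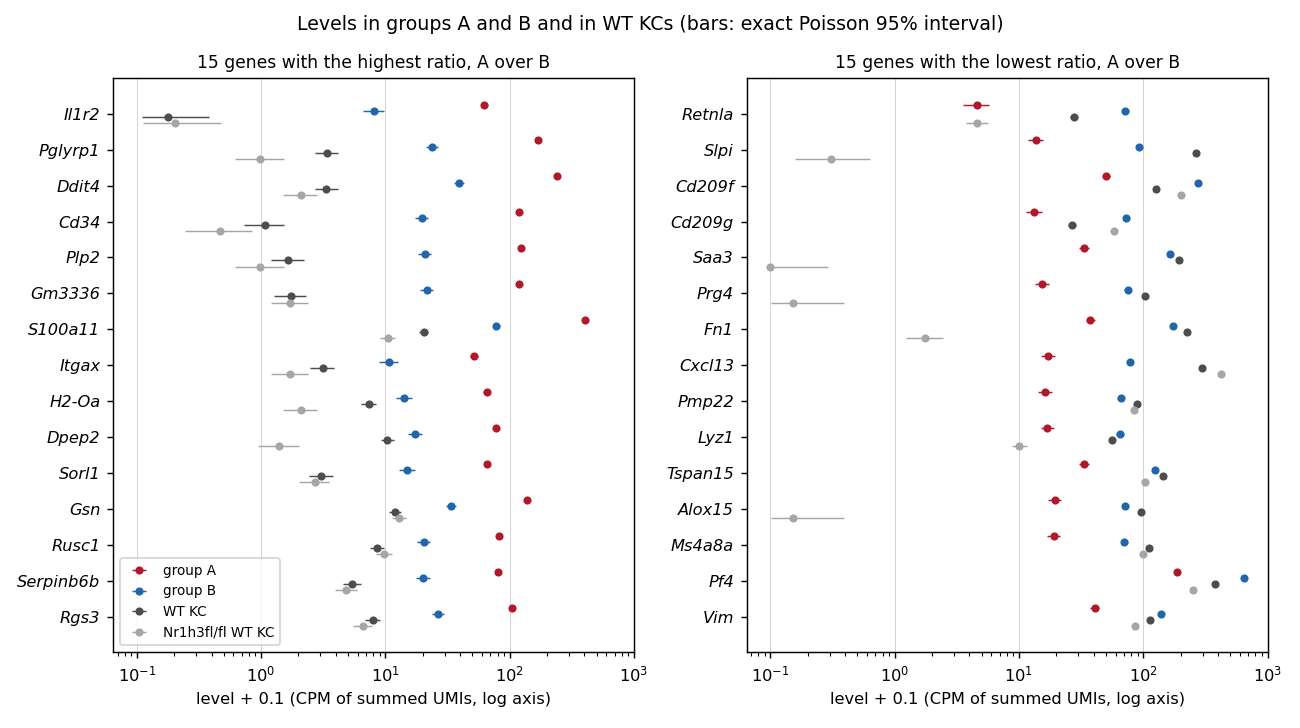
Levels of the 15 highest and 15 lowest genes in group A, group B and WT KCs, in CPM of summed UMIs plus 0.1 on a log axis, with exact Poisson 95% intervals as bars. For the highest genes the points of group B fall between those of group A and WT KCs, as for Il1r2 at 62.6, 7.94 and 0.0775 CPM; for the lowest the order varies, and Pf4 stands at 187, 650 and 380 CPM.

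Promoters of the marker gene and of 3 of the highest genes are shown for the E2-box of ZEB proteins, CACCTG, which was searched on both strands in the 300 bases from 250 before to 50 after each RefSeq start site (GRCm38.p6). The motif has capitals, as CACCTG or as its reverse complement CAGGTG. The Siglecf window lies at chr7:43351091-43351390 on the plus strand and held no match. That of Pglyrp1 lies at chr7:18884440-18884739, plus strand, with a match starting at position -80 from the start site. Gm3336, at chr8:70718293-70718592, plus strand, held a match at -16. The second of 3 Gsn windows, at chr2:35266494-35266793, plus strand, held a match at -41.
Siglecf: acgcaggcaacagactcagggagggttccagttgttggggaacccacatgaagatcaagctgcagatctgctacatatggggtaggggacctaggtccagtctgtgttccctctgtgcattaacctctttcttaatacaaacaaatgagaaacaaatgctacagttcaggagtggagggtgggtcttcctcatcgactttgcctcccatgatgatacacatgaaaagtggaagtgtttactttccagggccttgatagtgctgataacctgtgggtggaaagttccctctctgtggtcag
Pglyrp1: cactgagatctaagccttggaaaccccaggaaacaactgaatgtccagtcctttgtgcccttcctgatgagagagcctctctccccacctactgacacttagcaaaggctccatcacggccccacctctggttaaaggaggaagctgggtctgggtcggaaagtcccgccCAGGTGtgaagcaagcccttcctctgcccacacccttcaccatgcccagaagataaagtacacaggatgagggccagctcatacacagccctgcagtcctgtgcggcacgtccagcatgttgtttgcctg
Gm3336: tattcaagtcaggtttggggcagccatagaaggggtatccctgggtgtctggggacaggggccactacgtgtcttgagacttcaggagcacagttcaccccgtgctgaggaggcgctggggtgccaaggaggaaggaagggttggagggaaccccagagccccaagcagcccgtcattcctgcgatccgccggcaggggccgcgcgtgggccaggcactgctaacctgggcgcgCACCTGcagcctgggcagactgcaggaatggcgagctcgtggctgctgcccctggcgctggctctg
Gsn: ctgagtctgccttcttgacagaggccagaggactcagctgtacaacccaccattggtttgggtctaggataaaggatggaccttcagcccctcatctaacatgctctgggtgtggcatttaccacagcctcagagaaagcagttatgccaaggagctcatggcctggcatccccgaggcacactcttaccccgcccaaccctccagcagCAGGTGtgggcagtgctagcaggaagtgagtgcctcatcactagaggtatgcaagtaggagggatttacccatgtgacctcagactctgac

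The motif was present in 6640 of 32851 promoters (20.2%) and in 806 of 4280 genes that reached 20 CPM and had an entry (18.8%). It was present in 30 of 90 genes higher in group A (33.3%) and in 10 of 65 genes lower in group A (15.4%). Of the 15 highest genes, 13 had an entry and 3 held it (23.1%), the 3 printed above. A match is a description of the letters in this window and not evidence of binding.

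Among genes of at least 50 CPM, those with the largest deficit in group A were genes of particular minorities of group B as much as of group B at large. Cd209f, a C-type lectin gene, was at 50.1 CPM in group A, 274 in group B, 126 in WT KCs and 201 in Nr1h3fl/fl WT KCs. In group B 58.7% of its UMIs came from 414 cells of 1 cluster. Cd209g was at 13.1 CPM in group A, 73.0 in group B, 26.7 in WT KCs and 57.6 in Nr1h3fl/fl WT KCs. Reads of the neighbouring Cd209 genes may be shared, so the split between them is uncertain. Cxcl13, the chemokine that draws B cells, was at 17.1 CPM in group A and 78.1 in group B, both far below 298 in WT KCs and 424 in Nr1h3fl/fl WT KCs. In group B 21 cells held 60.8% of its UMIs. Pf4, platelet factor 4, was at 187 CPM in group A and 650 in group B, with the control libraries between them at 380 and 252 CPM.

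Genes that were spread over many cells of group B were Pmp22, a membrane protein gene, at 16.1 CPM in group A and 65.8 in group B; Tspan15, a tetraspanin, at 33.3 and 124 CPM; and Ms4a8a, at 18.97 and 70.2 CPM. They were detected in 8.12, 14.4 and 9.72% of group A cells and in 27.3, 42.3 and 27.3% of group B cells. Their levels in WT KCs, 88.3, 144 and 111 CPM, were above those of group B. Vim, the intermediate filament vimentin, was at 40.6 CPM in group A and 139 in group B, with 113 CPM in WT KCs. These genes had their lowest level in group A among the 4 sums.

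The other members of the 15 lowest rested on few cells. Between 94.5 and 97.0% of the group B UMIs of Slpi, Saa3, Prg4, Fn1 and Alox15 were in 26 cells of a cluster led by Alox15, of which group A had 7. The log2 ratios of these 5 genes were -2.67, -2.28, -2.22, -2.18 and -1.84. Without that cluster they were 0.60 for Slpi, -0.16 for Saa3, 0.08 for Prg4, -0.30 for Fn1 and 0.17 for Alox15, so the sign turned for 3 of the 5. Lyz1, which shares sequence with Lyz2, moved from -1.88 to -1.09 and remained past 2-fold. Retnla, a secreted protein of alternatively activated macrophages, had the lowest ratio, -3.73, at 4.47 CPM in group A and 71.4 in group B. The 21 cells of group B richest in it held 97.3% of its UMIs there, and 65.4% lay in 52 cells of a cluster led by Cd209a. For these genes the difference thus followed the cells of small clusters.

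Zeb2 UMIs were more frequent in group A than in group B. Zeb2 was at 1032 CPM in group A (1016 to 1049), 450 CPM in group B (438 to 461), 382 in WT KCs and 511 in Nr1h3fl/fl WT KCs, with a log2 ratio of 1.20. The conditional allele loses an internal exon and its 3′ end remains, so transcripts of a recombined allele are counted by this assay and the level does not check the deletion. Zeb2os, the antisense gene at the Zeb2 promoter, was at 49.99 CPM in group A and 81.7 in group B (-0.70). Zeb1, the paralogue, stayed under the 20 CPM floor at 17.9 and 13.2 CPM. Of 24 genes of a list of ZEB2, its corepressors and the TGF-beta and BMP pathway, 2 were higher, Zeb2 and Id1, and 0 were lower, around a median of -0.05, where 2.14% of all genes were higher and 1.47% lower. Id1, an inhibitor of basic helix-loop-helix factors and a BMP target, was at 531 CPM in group A, 230 in group B and 115 in WT KCs. Id2 (0.86) and Id3 (0.66) had ratios of the same sign under 2-fold, while Ctbp1 (-0.11), Smad1 (-0.13) and Smad7 (-0.06) lay close to 0.

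Many genes that define KCs were lower in group A, and none was 2-fold higher. Of 35 KC identity genes considered, 14 were lower and 0 higher, with a median of -0.70, where 1.47% of all genes were lower, 2.14% higher and the median was -0.08. Of the 32 that reached 20 CPM in both groups 11 were lower. Timd4, encoding TIM4, was at 70.1 CPM in group A, 186 in group B, 545 in WT KCs and 479 in Nr1h3fl/fl WT KCs. Cd163, the haemoglobin scavenger receptor, was at 30.6, 78.2, 322 and 481 CPM in the same order. For both genes group B stood between group A and the control libraries. Others that were lower were Cd5l (1892 and 3835 CPM in groups A and B), which encodes a secreted survival factor, Folr2 (407 and 993 CPM), a folate receptor, Marco (216 and 648 CPM, with 333 CPM in WT KCs), a bacterial scavenger receptor, and Apoc1 (711 and 1833 CPM), an apolipoprotein. Below 2-fold were Vsig4 (-0.56), Clec1b (-0.48) and Slc40a1 (0.03), the iron exporter ferroportin.

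Nr1h3 itself was at 225 CPM in group A, 304 in group B, 384 in WT KCs and 473 in Nr1h3fl/fl WT KCs (log2 ratio -0.43). The control libraries differed from each other by about as much as groups A and B did. A list of LXR target genes also held the receptor genes Nr1h3 and Nr1h2 and their partner gene Rxra. Of its 20 genes 2 were lower, Apoc1 and Cd5l, and 0 higher, where 1.47% of all genes were lower. The ratios ran from -1.37 to 0.73 with a median of 0.12. The cholesterol exporters Abca1 (0.10) and Abcg1 (0.18) differed little, and Apoe, the most abundant of the list, was at 29353 CPM in group A and 20372 in group B. Of 29 macrophage transcription factors none passed 2-fold in either direction (median 0.21, from -0.57 for Tfec to 0.84 for Bhlhe40 and Pparg). As 3.61% of all genes did, that count is near the share of all genes and nothing is read from it. Of 21 scavenger and efferocytosis genes 4 were lower, and 1, Cd300lf, was higher, where 1.47% of all genes were lower and 2.14% higher. The lower ones were Pros1 and 3 genes also in the KC identity list, Cd163, Marco and Timd4. Pros1 reached 20 CPM through group B alone. Of the 20 that reached it in both groups 3 were lower and 1 higher. Among complement genes C4b was lower (-1.37), while C1qa, C1qb and C1qc lay between -0.08 and -0.01.

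**Figure D2:**
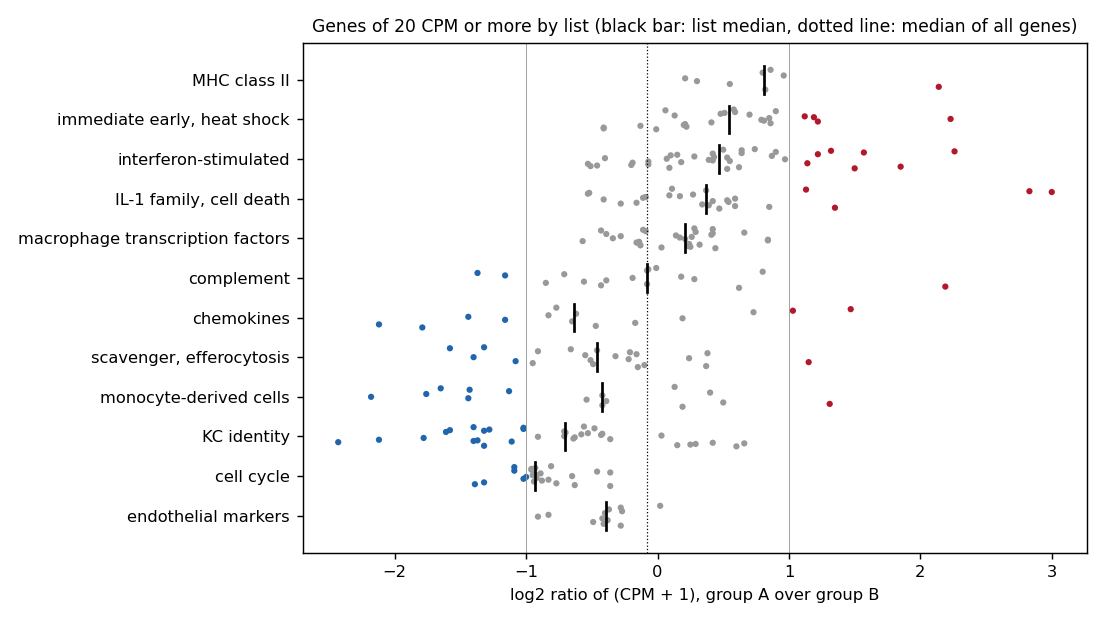
Log2 ratios of (CPM + 1) in group A over group B for the genes of each list that reached 20 CPM in either group, each point a gene and each black bar the list median. The KC identity list has its median at -0.70 and the cell cycle list at -0.93, while the MHC class II list lies at 0.81 and the interferon list at 0.47.

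Of 25 genes of the IL-1 family and of cell death, 4 were higher and none lower (median 0.37), where 2.14% of all genes were higher. They were 3 IL-1 family genes, Il1r2, Il1f9 and Il1b, and the cell death gene Pmaip1. Il1r2 and Il1f9 reached 20 CPM through group A alone. Il1b was at 391 CPM in group A, 178 in group B, 170 in WT KCs and 183 in Nr1h3fl/fl WT KCs, so that group B did not stand apart from the control libraries. Its log2 ratio of 1.13 was 0.95 when every cell was first thinned to 4177 UMIs and the rule applied afterwards. Il1f9, an IL-36 cytokine, was at 27.7 CPM in group A, 2.60 in group B and 0 in WT KCs. Pmaip1, the BH3-only gene Noxa, was at 146 CPM in group A, 56.6 in group B and 27.0 in WT KCs. Il1a was at 77.4 and 71.6 CPM in groups A and B, with a ratio interval from -0.01 to 0.24, and Ripk3, a kinase of necroptosis, at 99.6 and 65.9 CPM (0.59).

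Chemokine genes went both ways. Ccl3 was at 267 CPM in group A, 95.7 in group B and 36.0 in WT KCs, and Ccl4 at 247, 120 and 37.5 CPM; these were the 2 higher genes of the 14 chemokines considered. Ccl9, Cxcl2, Cxcl13 and Pf4 were the 4 lower ones, where 2.14% of all genes were higher and 1.47% lower. Ccl9, Cxcl2 and Cxcl13 reached 20 CPM through group B alone and had to stand lower in group A. Of the 10 chemokines that reached it in both groups 2 were higher and 1 lower. The Alox15 cluster held 29.6% of the group B UMIs of Cxcl13 and 21.7% of those of Pf4, and without it their ratios were -2.23 and -1.88. Of 7 chemokine receptors, Ccr3, the eotaxin receptor, was higher at 331 CPM in group A against 123 in group B and 23.8 in WT KCs. Cx3cr1, the fractalkine receptor of monocyte-derived cells, was lower at 35.3 CPM in group A against 113 in group B, both above 7.09 in WT KCs and 6.61 in Nr1h3fl/fl WT KCs. Ccr2, the receptor for monocyte exit from bone marrow, was at 62.5 and 56.9 CPM in groups A and B against 8.29 and 4.63 CPM in the control libraries, and its ratio of 0.13 had an interval that included 0. Among 15 genes of a list for monocyte-derived macrophages 6 were lower in group A (Cx3cr1, S100a6, Lgals1, Vim, Fn1 and Ccl9) and 1, Napsa, was higher, with a median of -0.42. The call of Fn1 rested on the Alox15 cluster, as described above, and S100a6 and Ccl9 reached 20 CPM through group B alone and Napsa through group A alone. Of the 12 members that reached it in both groups 4 were lower.

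MHC class II genes had higher levels in group A without passing 2-fold, except H2-Oa. The 8 genes had ratios between 0.21 and 2.14 with a median of 0.81, and summed to 26409 CPM in group A, 15003 in group B, 17905 in WT KCs and 7015 in Nr1h3fl/fl WT KCs. The distance between the control livers was thus as wide as that between the groups. Interferon-stimulated genes had 7 of 36 higher and none lower (median 0.47), where 2.14% of all genes were higher. Of the 32 that reached 20 CPM in both groups 3 were higher, and the whole list summed to 8629 CPM in group A, 8275 in group B, 10516 in WT KCs and 10882 in Nr1h3fl/fl WT KCs. They were Ifit1bl1, Slfn1, Isg20, Trim30b, Ifit3b, Oasl2 and Gbp4, from 2.26 for Ifit1bl1 to 1.14 for Gbp4, while the abundant Ifitm3 (-0.46) and Ifi27l2a (0.07) did not follow. Of 24 immediate early and heat shock genes, which can reflect handling of cells, 4 were higher (Dusp5, Btg2, Atf3 and Ier5) and none lower, with a median of 0.54, where 2.14% of all genes were higher. Dusp5 reached 20 CPM through group A alone. Of the 23 that reached it in both groups 3 were higher. Fos was at 455 CPM in group A and 304 in group B, against 187 in WT KCs.

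Of 34 genes of an epithelial programme that ZEB proteins are known to repress, 4 reached the floor, and a gene that reached it through group A alone had to stand higher there. Spint1, a serine protease inhibitor, was at 30.7 CPM in group A, 4.50 in group B and 0.155 in WT KCs. Spint2, its relative, was at 84.7, 24.0 and 5.73 CPM. F11r, a tight junction protein, was at 63.5 CPM in group A, 26.7 in group B and 19.95 in WT KCs, and Jup, plakoglobin, at 99.0, 67.5 and 58.2 CPM. The first 3 were past 2-fold, where 2.14% of all genes were higher, and Spint1 reached the floor through group A alone. Among colony-stimulating factor receptor genes, Csf1r had a log2 ratio of 0.02 (interval -0.01 to 0.06) and Csf2ra of 0.14 (0.05 to 0.24), and Csf3r, the G-CSF receptor, was higher at 65.9 CPM in group A against 27.6 in group B. Of lipid-handling genes Hcar2, the niacin receptor, was higher (1.81), and the fatty acid-binding protein gene Fabp7 (-1.40) and Apoc1 (-1.37) were lower.

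Markers of other cell types were examined beside these results. Of 9 eosinophil genes, the granule genes Prg2 and Epx had 0 UMIs in both groups and Prg3 had 12 UMIs in group A and 0 in group B, while Ccr3 was higher and Ear2 stood at 196 and 271 CPM. Of 10 neutrophil genes, S100a8 had 64 UMIs in group A and 7 in group B and Camp and Ngp had none, and the list summed to 84.7 CPM in group A and 49.0 in group B, most of it Csf3r. B cell genes summed to 152 and 133 CPM in groups A and B, of which Cd37 and Cd79b made up nearly all; Cd79a was set to 0 in group A by the rule and was at 7.17 CPM in group B. The 14 endothelial genes summed to 921 CPM in group A and 1214 in group B, against 565 in WT KCs and 351 in Nr1h3fl/fl WT KCs. The 16 hepatocyte genes summed to 1071 and 1076 CPM. Haemoglobin and other erythroid genes summed to 16.6 and 5.27 CPM. The part of other cell types in the differences was not tested beyond leaving out their clusters, which gave 126 higher and 97 lower genes.

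Of 23 genes of the cell cycle considered, 6 were lower, where 1.47% of all genes were. The ratio of 9 of the 23 was bound to lie below 0, since they reached 20 CPM through group B alone. Of the 14 that reached it in both groups 3 were lower, with a median of -0.89. Stmn1, a microtubule regulator, was at 83.7 CPM in group A, 221 in group B, 46.6 in WT KCs and 71.9 in Nr1h3fl/fl WT KCs; Top2a and Birc5, which act in mitosis, both had a ratio of -1.09. Cells with at least 2 UMIs over 6 genes of dividing cells made up 6.62% of group A (141 of 2130, interval 5.601 to 7.76%) and 14.3% of group B (295 of 2057, 12.8 to 15.9%), against 3.35% of WT KCs and 5.69% of Nr1h3fl/fl WT KCs. With each cell thinned to 4177 UMIs the shares were 5.14, 13.5, 2.96 and 5.70%. Among D-type cyclins and cyclin-dependent kinase inhibitors none of 6 passed 2-fold, where 3.61% of all genes did, and nothing is read from that count.

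Because 1 marker UMI decided membership, the levels were followed by the number of Siglecf and Ms4a1 UMIs in a cell. There were 609 cells of group A with 1 marker UMI, 455 with 2, 561 with 3 or 4 and 505 with 5 or more, and the deepest of these classes was the last, with a median of 7682 UMIs per cell against 5707 in the first. Just inside the limit, cells with 1 marker UMI had Zeb2 at 792 CPM, Pglyrp1 at 106, Il1r2 at 31.5, Timd4 at 116 and Pf4 at 481. Just outside it, group B had 450, 23.6, 7.94, 186 and 650 CPM. Cells with 1 marker UMI thus stood between group B and the cells with more marker UMIs for each of these genes.

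Zeb2 was at 1057, 1168 and 1118 CPM with 2, with 3 or 4 and with 5 or more marker UMIs. Il1r2 was at 67.0, 66.6 and 85.4 CPM, Pglyrp1 at 183, 192 and 197 CPM, and Timd4 at 79.8, 50.3 and 38.1 CPM. Beyond 2 marker UMIs Zeb2 and Pglyrp1 were nearly level, while Timd4 went on to lower levels. Over the 116 higher genes outside the rule the median level was 20.3 CPM in group B, then 43.6, 61.9, 70.0 and 71.6 CPM, and over the 81 lower genes 73.0, 48.6, 19.6, 17.4 and 14.9 CPM. The genes were chosen for the difference between groups A and B, which fixes the direction from the first class to the others, and nothing is read from it.

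**Figure D3:**
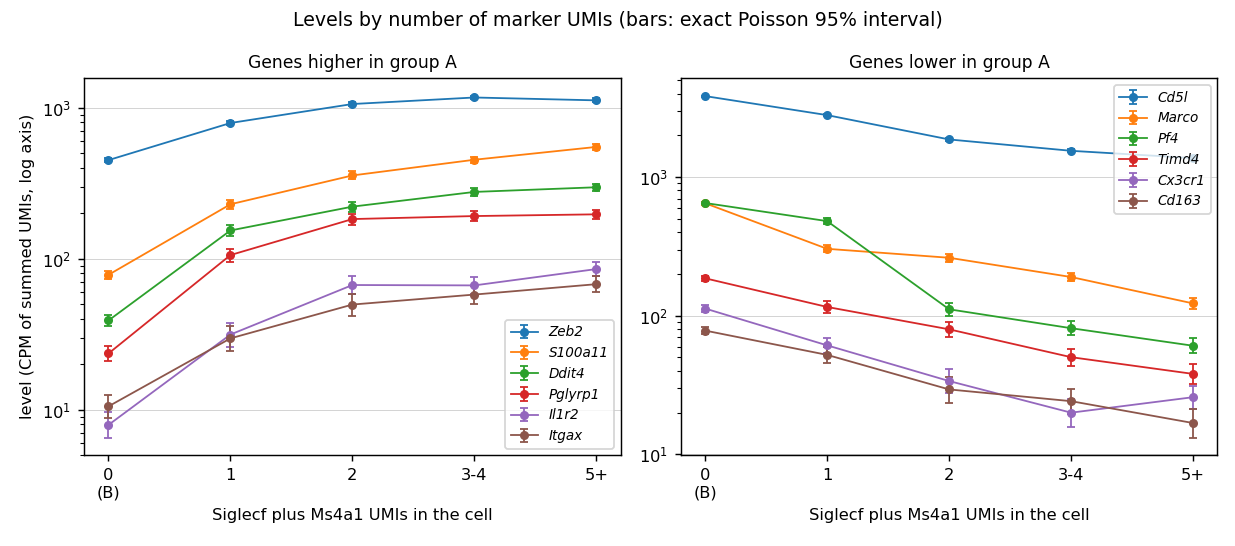
Levels of named genes, in CPM on a log axis with exact Poisson 95% intervals, against the number of Siglecf plus Ms4a1 UMIs in the cell, with 0 standing for group B. Il1r2 goes from 7.94 CPM at 0 to 31.5 at 1 and 85.4 at 5 or more, and Timd4 from 186 to 116 and 38.1.

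Cells that carried Siglecf without Ms4a1 (874) and Ms4a1 without Siglecf (296) were close to each other. Only 10 of 5500 genes differed 2-fold (0.182%), and they included Siglecf and Ms4a1 themselves, Prg4, Saa3, Slpi, Lyz1 and Alox15 of the small cluster above, Apol7c, Ccl5 and Meg3. Meg3, an imprinted long non-coding RNA, was at 49.6 CPM in Siglecf-only cells and 15.1 in Ms4a1-only cells. Zeb2 was at 955 and 933 CPM, Pglyrp1 at 147 and 142 CPM and Timd4 at 89.7 and 95.1 CPM. In the 960 cells with both markers, which were deeper (median 6925 UMIs), Zeb2 was at 1125 CPM, Pglyrp1 at 194 and Timd4 at 46.6.

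Clustering of the 3 liver libraries together placed most of group A apart from any control cell. A cluster led by Siglecf held 1626 cells of group A (76.3%), 265 of group B (12.9%) and no WT KC, and a smaller one led by Pglyrp1 held 70 and 26 cells and again no WT KC. The genes of the rule, Zeb2 and Zeb2os were left out of the clustering, and the leading gene of a cluster was read afterwards. Other genes that differ between groups A and B could enter it. In sum, 1696 cells of group A (79.6%, interval 77.8 to 81.3%) and 291 of group B (14.1%, 12.7 to 15.7%) lay in clusters without WT cells. Of the group A cells there, 20.6% had only 1 marker UMI. The group B cells there were shallow, with a median of 4301 UMIs. No step to align the libraries was run, and the control libraries also lay largely apart from each other. A cluster led by Cebpb held 72.15% of Nr1h3fl/fl WT KCs and 5.22% of WT KCs, and one led by Clec4f 4.25 and 46.3%. The part of differences between libraries in the clustering was not tested.

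**Figure D4:**
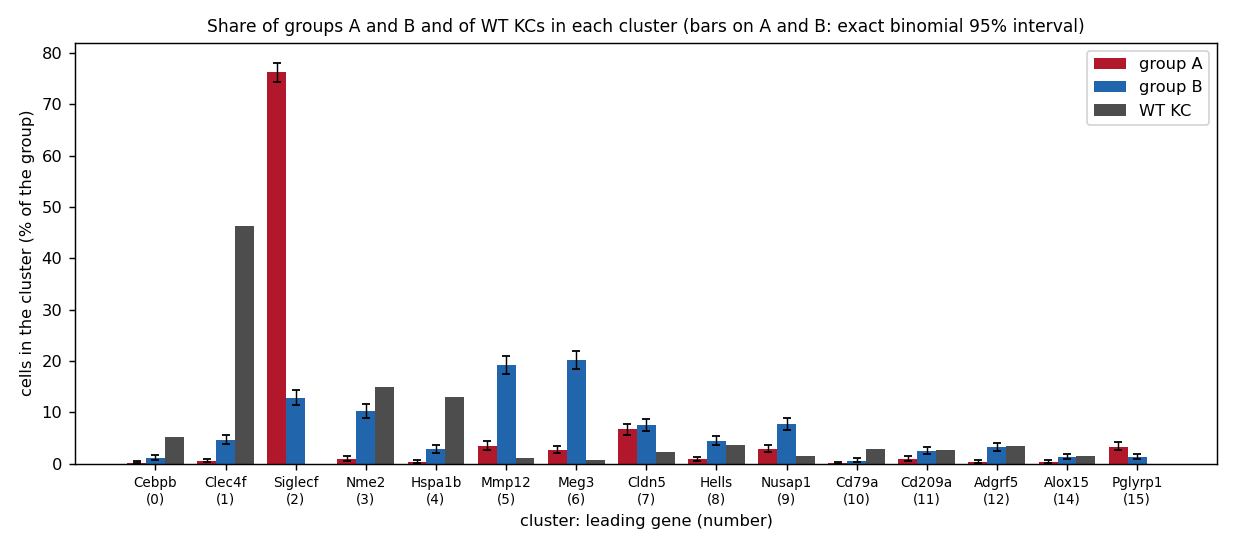
Share of group A, group B and WT KCs in each cluster of the liver libraries, in percent of the group, with exact binomial 95% intervals on groups A and B. Group A lies mostly in the Siglecf-led cluster (76.3%), group B is spread, with 20.1% in the Meg3-led and 19.2% in the Mmp12-led cluster, and WT KCs lie in other clusters.

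The cells of group B that lay in the clusters without WT cells are set beside those of group A there. Both were placed in these clusters by their expression, so that a likeness between them is in part set by the clustering. Zeb2 was at 1092 CPM in them and 1191 in group A, Pglyrp1 at 149 and 206 CPM, Il1r2 at 46.6 and 77.0 CPM, Itgax at 36.4 and 59.0 CPM, and Timd4 at 80.1 and 53.6 CPM. Of 5289 genes 14 differed 2-fold (0.265%). Those were Siglecf and Ms4a1, which the rule fixed, Ccl5, Pstpip1, Ltb, Spint1, Bcl2a1d, Gpr132, Dpp4, Gadd45b and Susd3 on the higher side, and Retsat, Ccl12 and Cxcl9 on the lower. Of the 116 higher genes outside the rule, 108 were still above 0, with a median of 0.28. When these 291 cells were left out of group B, 158 genes were higher in group A and 125 lower.

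The rest of group B was not uniform. The cluster led by Mmp12, with Cx3cr1 and Ccr2 also prominent, held 395 cells of group B (19.2%), 74 of group A (3.47%) and 50 WT KCs. In its group B cells Zeb2 was at 391 CPM, Cx3cr1 at 215, Ccr2 at 115 and Timd4 at 67.2, while Pglyrp1 was at 2.21. The cluster led by Meg3, with Cd209g and Marco, held 414 cells of group B (20.1%), 56 of group A (2.63%) and 34 WT KCs. Its group B cells had Zeb2 at 541 CPM, Timd4 at 409, Cd163 at 173, Marco at 1564, Cd209f at 947 and Meg3 at 196, and Ccr2 at 5.39. Timd4 and Ccr2 thus stood in opposite order in these clusters, while Pglyrp1 (3.60 CPM in the Meg3 cluster) was near its level in WT KCs in both. Il1r2 was at 1.26 CPM in the Mmp12 and 2.70 in the Meg3 cluster, above WT KCs.

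A further 709 cells of group B (34.5%) lay in clusters that WT KCs also fill, with Zeb2 at 296 CPM, Timd4 at 227, Cx3cr1 at 96.1 and Pglyrp1 at 13.7. They include 157 cells of a cluster led by Nusap1 (7.63% of group B, 1.44% of WT KCs). A further 90 lay in a cluster led by Hells (4.38 and 3.59%). Cell cycle genes were prominent in both clusters. The 709 cells also include 52 of the cluster led by Cd209a and 26 of the cluster led by Alox15. Another 248 cells of group B (12.1%) lay in clusters of other cell types, as did 156 cells of group A (7.32%). The cells of group A inside the Mmp12 and Meg3 clusters had Zeb2 at 419 and 684 CPM and Pglyrp1 at 7.45 and 3.05 CPM, and 82.4 and 91.1% of them had only 1 marker UMI. Set against group B cells of the clusters that WT KCs fill, the group A cells of clusters without WT cells differed in 702 of 5602 genes (12.5%). All 116 higher and 81 lower genes kept their direction there, which both the clustering and the rule favour.

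**Figure D5:**
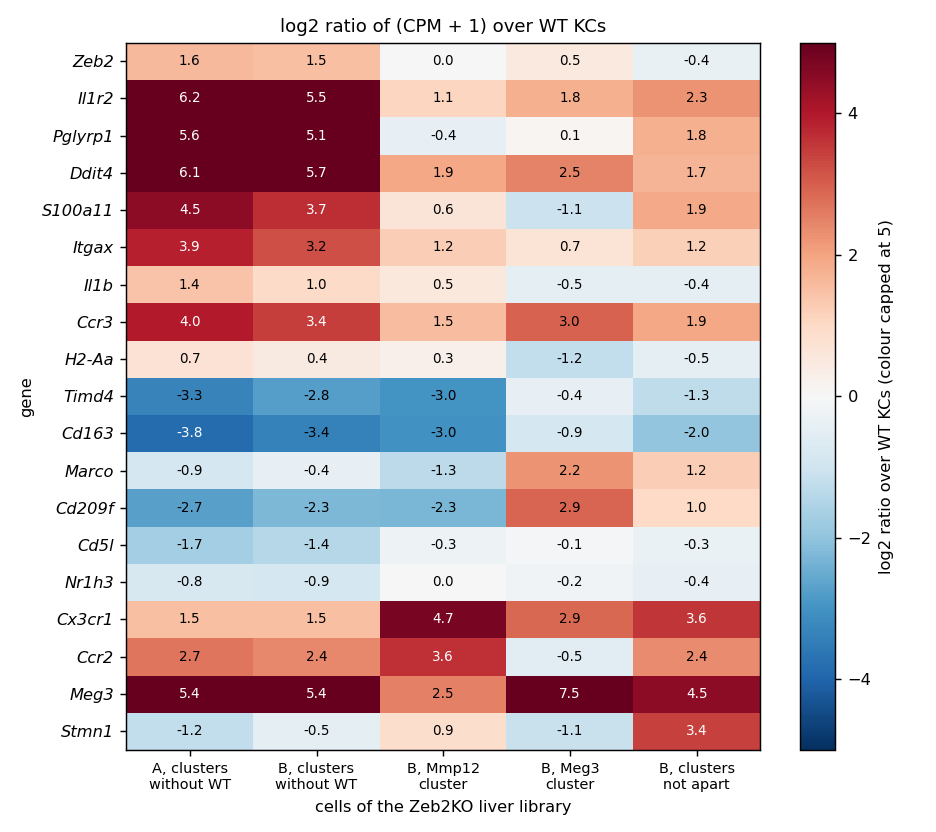
Log2 ratios of (CPM + 1) over WT KCs for named genes in the part of group A in clusters without WT cells and in 4 parts of group B; colour gives the ratio, capped at the ends of the scale. Il1r2 stands at 6.18 and 5.47 in the cells of groups A and B in clusters without WT cells. In group B it is 1.07 in the Mmp12 cluster, 1.78 in the Meg3 cluster and 2.25 in the other clusters not set aside as other cell types. Ccr2 is 3.64 in the Mmp12 cluster and -0.54 in the Meg3 cluster.

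Beside WT KCs, group B differed less than group A did. Group A was higher than WT KCs in 277 of 5493 genes (5.04%) and lower in 153 (2.79%), and group B higher in 128 of 5447 (2.35%) and lower in 33 (0.606%). These comparisons share the WT library. The Nr1h3fl/fl WT library, set against WT KCs in the same way, was higher in 26 of 5587 genes (0.465%) and lower in 57 (1.02%), which gives the size of a difference between livers with no cre. Of the 116 genes higher in group A over group B, group A was 2-fold above WT KCs in 111 and group B in 45, with medians of 2.14 and 0.81. Of the 81 lower genes, group A was 2-fold below WT KCs in 59 and group B in 9, while group B was 2-fold above in 13, with medians of -1.44 and -0.21. Against Nr1h3fl/fl WT KCs the numbers were 104 and 59 for the higher genes, and 50 and 11 for the lower, of which group A was 2-fold above that control in 8 and group B in 22. The genes were chosen for the difference between groups A and B. That choice makes a difference of group A from the controls more likely, but it fixes the place of neither group against them. Group B was not above the controls for every higher gene, for example Csf3r, at 27.6 CPM in group B and 29.2 and 32.6 CPM in the control libraries, and Oasl2, at 87.8 CPM in group B and 96.3 and 119 CPM in the controls. Whether the excess in group B came from cells that lacked a marker UMI by chance was not tested, and its part in clusters without WT cells is given above.

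TIM4 divides KCs by their age in the tissue, and Timd4 UMIs were found in 458 cells of group A (21.5%) and 895 of group B (43.5%). With cells thinned to 4177 UMIs the shares were 15.9% in group A, 37.5% in group B, 85.8% in WT KCs and 83.0% in Nr1h3fl/fl WT KCs. Both groups were therefore poorer in Timd4-expressing cells than either control. The comparison was repeated within these strata. The genes had been called on the sum of the same cells, which favours the same sign in each stratum, and Timd4 is itself 1 of the 81 lower genes. Among cells with a Timd4 UMI, all 116 higher genes were still above 0 (median 1.26) and all 81 lower genes below 0 (-0.98). Among cells without one, 116 of 116 were above 0 (1.36) and 75 of 81 below 0 (-1.27). Zeb2 was at 809 CPM in group A and 433 in group B with a Timd4 UMI, and at 1100 and 462 CPM without. Pglyrp1 was at 157 and 15.7 CPM with, and at 172 and 29.3 CPM without.

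The same genes were looked up in Zeb2KO against WT libraries of the other organs, which the rule did not use. All cells past the cell filter were summed there, without a split by markers. The study reports cells that kept a copy of Zeb2 in every organ but the brain, and the cre differed by organ. Shares of different organs are therefore not like for like. Microglia of the brain had 4.27% of 5922 genes higher and 4.07% lower, colonic macrophages (CM) 1.01% and 0.478% of 5231, alveolar macrophages (AM) 4.35% and 7.31% of 5811, and splenic macrophages (SM) 1.8% and 0.779% of 6160. Of the genes higher in group A that reached 20 CPM in the organ, 38 of 77 (49.4%) were 2-fold higher in Zeb2KO microglia, 11 of 71 (15.5%) in CM, 19 of 65 (29.2%) in AM and 29 of 84 (34.5%) in SM. Their median ratios were 0.99, 0.38, 0.32 and 0.63, where all genes of the organ had -0.09, 0.05, -0.31 and -0.04. These shares all lay above the organ's own background. A gene that reached 20 CPM in the Zeb2KO library alone had to stand higher there, as did Itgax in microglia at 5.03 and 36.8 CPM. The shares without such genes were not computed.

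Il1r2 was at 0 and 2.60 CPM in WT and Zeb2KO microglia, 20.01 and 82.4 in CM, 0.0364 and 5.19 in AM, and 0.753 and 10.1 in SM, so it was higher in all 4, though under the floor in 3. Plp2 was at 0.0811 and 17.6 CPM in microglia, 24.6 and 55.9 in CM, 48.4 and 268 in AM, and 5.65 and 16.1 in SM. Itgax had ratios of 2.65 in microglia and 2.41 in SM but 0.02 in CM and 0.79 in AM, where WT cells already had 83.8 and 289 CPM. Siglecf itself was at 30.7 and 408 CPM in WT and Zeb2KO microglia, and at 126 and 69.3 CPM in AM, which express it normally. Cd34 had a ratio of 0.14 in microglia and stayed under the floor in CM, AM and SM.

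The genes lower in group A were looked up in the same way, beside the shares of all genes lower in each organ given above. Of those that reached the floor, 14 of 29 (48.3%) were 2-fold lower in Zeb2KO microglia, 2 of 56 (3.57%) in CM, 8 of 36 (22.2%) in AM and 6 of 42 (14.3%) in SM. In the same order 1 (3.45%), 1 (1.79%), 6 (16.7%) and 4 (9.52%) were 2-fold higher, beside the shares of all genes higher given above. A gene that reached the floor in the WT library alone had to stand lower in Zeb2KO. Pmp22 went from 376 CPM in WT to 3.07 CPM in Zeb2KO microglia, and from 124 to 148 CPM in CM. Timd4, with 57.2 CPM in WT SM, was at 50.2 CPM in Zeb2KO SM, and Pf4, at 4660 CPM in WT CM, was at 3966 CPM in Zeb2KO CM. With 1 library per genotype in each organ, none of these differences has a replicate.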

How the data were processed

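Single-cell suspensions were sorted and sequenced by the study with droplet 3′ libraries, and the authors aligned reads and counted UMIs with Cell Ranger on mm10. The deposited matrices hold raw counts of UMIs per gene and barcode, of 27998 genes in 11 libraries. Cells over 3 median absolute deviations from their library's median in UMIs, genes or mitochondrial share were left out, which removed 271 of 4717 barcodes (5.75%) of the Zeb2KO liver library. UMIs were summed over the cells of a group and scaled to counts per 1000000 (CPM). Ratios are log2 of (CPM + 1), and a gene was considered from 20 CPM in either group and called from a log2 ratio of 1. Intervals at 95% are exact Poisson (levels), exact conditional binomial (ratios) and exact Clopper-Pearson (shares). They cover counting error only. For genes considered, the median half-width of a level's interval was 7.21% in group A and 7.68% in group B. A count of 0 allows up to 3 counts.

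The 3 liver libraries were clustered with scanpy 1.11.5 (2000 variable genes, 30 components, 15 neighbours, Leiden resolution 0.8, leidenalg 0.10.2). A cluster was set aside as another cell type by its marker genes. The clusters led by Alox15 and by Cd209a did not meet that rule and were kept. No doublet caller was run, and clusters of other cell types were left out as an alternative. TMM factors came from edgeR 4.0.16 in R 4.3.3, with no count test, since groups A and B are cells of 1 library. Shares that depend on depth were repeated with cells thinned to 4177 UMIs. The summing was tested on simulated data. Promoters are RefSeq entries of GRCm38.p6, matched by symbol.

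The genes named are the 15 highest and 15 lowest ratios among genes of at least 50 CPM that stay past 2-fold without other cell types, leaving out the genes of the rule and mitochondrial, ribosomal, immunoglobulin, haemoglobin, Y-linked and X-inactivation genes, a fixed set of genes, and up to 6 members with the largest ratios and 3 most abundant members of each list. The members and the gene lists were chosen with earlier results of these data known. Alternatives were other cell filters, rules, floors, pseudocounts, scalings and cluster exclusions.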

Additional observations from a re-analysis of the deposited data

Results flagged for a closer look

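One result came from cells outside the comparison. Of 151 cells of the Zeb2KO liver library without a Clec4f UMI, 26 otherwise met the rule for group A (17.2%, exact binomial interval 11.6 to 24.2%), and none of 35 such cells of the WT KC library (which allows up to 8.57%) and none of 10 of the Nr1h3fl/fl WT KC library (up to 30%) did. Of the 26 cells, 14 lay in clusters without WT cells and 4 in clusters of other cell types, and 12 had 2 or more marker UMIs. Their median depth was 4084.5 UMIs. Summed over them, Cd5l was at 1021 CPM, Csf1r at 843, Zeb2 at 553 and Pglyrp1 at 59.3. Whether these cells missed Clec4f by depth was not tested.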

How the results depend on the processing

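Of 45 genes (the 15 highest, the 15 lowest and the fixed set, without members named only from lists), 37 were past 2-fold. None of these 37 changed sign under 15 alternatives, and at most 1 (Il1b, 0.95 when the rule was applied to thinned cells) came under 2-fold. The 37 include Siglecf and Ms4a1, whose direction the rule fixed. Pseudocounts of 0.1 and 5 CPM could not change a sign. The alternatives by at least 2 marker UMIs, by Siglecf alone and by Ms4a1 alone used subsets of the same group A cells. The 15 highest and 15 lowest were chosen to stay past 2-fold without other cell types, so that alternative could not change them. Leaving out the Alox15 cluster, chosen after seeing the data, turned Slpi to 0.60, Prg4 to 0.08 and Alox15 to 0.17, and took 5 genes under 2-fold; that cluster holds most of their UMIs. The 199 genes (118 higher, 81 lower) were 395 (191 and 204) with a floor of 5 CPM, 124 (71 and 53) with 50 CPM and 512 (228 and 284) with no floor, which changes the genes tested. With group B limited to clusters that WT KCs share, which kept its 248 cells in clusters of other cell types, they were 532 (197 and 335). Lower genes numbered 141 with at least 2 marker UMIs in group A, 130 with group A set by Ms4a1 alone and, chosen after seeing the data, 125 with group B without clusters that hold no WT KC. The cause was not tested. Higher genes were 59.3% of those past 2-fold, 51.0% with at least 2 marker UMIs, 51.9% by Ms4a1 alone, 47.3% with the rule on thinned cells, 48.4% with a floor of 5 CPM, 44.5% with no floor, 37.0% with group B limited and 71.3% with TMM. With at least 2 marker UMIs, chosen after seeing the data, the rule picked 3 WT KCs and 1 Nr1h3fl/fl WT KC instead of 53 and 29. No paired analysis was possible because groups A and B are cells of 1 library, and no test was made. Depth limits genes under 20 CPM, such as Zeb1.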
